A study of Mus musculus with 20 samples.

Results

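Transcripts of 41 nuclear receptor genes were followed in mouse liver across feeding state and Mcl1 genotype. The 41 genes are a fixed list of receptors taken by gene symbol. The clock receptors Nr1d1 and Nr1d2, the bile acid control receptors Nr1h4 and Nr0b2, the glucocorticoid receptor and the androgen receptor are not on it. Of the 22206 probe sets on the arrays, 37 stood for a listed receptor, with 1 probe set per gene, the one with the highest mean over all 20 arrays. Ppard (PPAR delta), Nr1h2 (LXR beta), Esrra (ERR alpha) and Nr2e3 matched no listed probe set and were not analysed here. Rora had 3 probe sets and Rorb had 2.

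Liver RNA of 20 mice was hybridised to 1 Affymetrix array each. WT mice and Mcl1(L-/-) mice, the latter called Mcl1KO here, were either fed or fasted, which gives 4 groups of 5 biological replicates. One protocol text stands on all 20 samples. It says that Mcl1(F/F) mice, which carry a floxed Mcl1 gene, received AAV-LP1-Cre, a viral vector that puts the Cre recombinase under the liver-directed LP1 promoter and it does not say what was injected into WT mice. Fed mice had food at all times. Fasted mice were kept singly on wire floors and had no food for 48 h, and every mouse had water. Sex, age and processing batch are not given in the labels. Values are normalised log2 signals, so a difference of 1 is a doubling.

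Mcl1, an anti-apoptotic gene of the BCL2 family, checked the genotype labels. Its mean was 7.43 ± 0.15 (SD, n = 5) in WT livers when fed and 7.28 ± 0.09 when fasted, against 6.09 ± 0.16 and 6.14 ± 0.25 in Mcl1KO livers, and the arrays of the genotypes did not overlap. Neither the labels nor the files say which exons its probe set covers. The mean over 8 measured hepatocyte markers, Hnf4a among them, lay between 11.22 and 11.41 on all arrays, against 2.77 to 2.99 for 14 measured genes of other organs. The first principal component of all probe sets held 34.2% of the variance and put fed livers at -26.1 to -20.5, fasted WT livers at 6.61 to 18.4, and fasted Mcl1KO replicates 1 to 5 at 42.1, 46.8, 18.3, 27.0 and 43.4. Fasted Mcl1KO replicates 3 and 4 thus stood apart from the other 3, and the calls that rest on this group are also given without them. That alternative was chosen after seeing the data. Of this group, replicates 3 and 4 lay closest to the fasted WT livers on this component. Leaving them out moves the group further from fasted WT livers, so a call kept or gained that way is no separate support.

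Nuclear receptors are transcription factors that bind DNA and, in most cases, a small lipophilic ligand such as a fatty acid, a hormone, a vitamin or a drug. Many of them, among them the peroxisome proliferator-activated receptors (PPARs) and the receptors for thyroid hormone, retinoic acid, oxysterols and xenobiotics, bind as pairs with a retinoid X receptor (RXR). Coactivators and corepressors that they recruit set whether a target gene is switched on. In liver, this family connects feeding state to fat oxidation, lipid synthesis and detoxification, and much of that control acts through ligand and cofactor rather than through the level of the receptor's own transcript.

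Promoter sequences are shown for 3 receptors, because the largest fall, the one call higher in fasted Mcl1KO than in fasted WT livers, and the fall with the lowest adjusted p were theirs. They were chosen after the values were seen. Each is the 250 bases before an annotated start in RefSeq, build GRCm38.p6, on the gene's own strand and written 5′ to 3′. Windows were found for 38 of the 41 genes, 59 windows in all, and the motifs were searched on both strands.

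Nr4a1 lies at chr15:101266596-101266845 on the plus strand. Capitals mark CGTCA, the other strand's reading of TGACG, the core of the cyclic AMP response element TGACGTCA (the full element contains TGACG on both strands).
Nr4a1: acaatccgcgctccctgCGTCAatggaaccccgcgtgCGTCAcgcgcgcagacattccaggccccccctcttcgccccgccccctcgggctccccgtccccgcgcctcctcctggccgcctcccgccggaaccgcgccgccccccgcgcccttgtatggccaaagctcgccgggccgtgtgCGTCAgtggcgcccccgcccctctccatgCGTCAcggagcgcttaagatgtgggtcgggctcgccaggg
Rarb lies at chr14:16575477-16575726 on the minus strand. Capitals mark 2 copies of GTTCA with 6 bases between them, as in the retinoic acid response element that textbooks give for this gene.
Rarb: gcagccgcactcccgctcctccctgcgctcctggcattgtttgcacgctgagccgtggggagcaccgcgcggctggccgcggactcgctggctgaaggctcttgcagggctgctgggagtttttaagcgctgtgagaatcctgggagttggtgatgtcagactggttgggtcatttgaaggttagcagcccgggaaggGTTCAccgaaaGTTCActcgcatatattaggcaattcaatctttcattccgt
Thrb lies at chr14:17660710-17660959 on the plus strand, the first of 2 annotated starts. Capitals mark AGGTCA, the half-site shared by many receptors of the family.
Thrb: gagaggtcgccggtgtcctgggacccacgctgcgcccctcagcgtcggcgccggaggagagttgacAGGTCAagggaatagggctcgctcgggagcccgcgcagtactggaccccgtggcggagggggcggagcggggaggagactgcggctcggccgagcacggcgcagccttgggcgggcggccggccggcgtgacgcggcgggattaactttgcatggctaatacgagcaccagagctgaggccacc

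The Nr4a1 window held 4 copies of TGACG, whose first bases lay 233, 213, 69 and 40 bases before the start. Of all 32851 windows in the table, 45 (0.137%) held 4 or more copies and 17.8% held at least 1. Of the 59 receptor windows, 13 (22.0%) held at least 1, and 3 (5.08%) held 4, those of Nr4a1 and of its dim, uncalled paralogs Nr4a2 and Nr4a3. The full element TGACGTCA was in 1 receptor window and in 1.55% of all windows. The repeat printed for Rarb began 52 bases before its start and occurred in 22 of all windows (0.0670%). AGGTCA, found 184 bases before the Thrb start, was in 9 of 59 receptor windows (15.3%) and in 14.0% of all windows. Direct repeats of AGGTCA spaced by 1, 4 or 5 bases were in no receptor window. These are letter matches in short windows, and binding was not measured.

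Signal set how much could be seen for each receptor. A probe set is called dim here where its mean over all arrays lay under 3.41, the median of such means. Of the 37 measured receptors, 26 were not dim, with means from 3.56 to 8.82, and 11 were dim, with means from 2.02 to 3.06. The 14 genes of other organs had means from 1.97 to 4.11, so the dim receptors lay within the range of genes that liver is not known to use. The dim receptors were Nr5a1, Nr0b1, Nr2e1, Nr2f1, Nr4a2, Nr4a3, Esr2, Esrrb, Pgr, Rorb and Hnf4g, several of which are known from steroidogenic tissue, brain or reproductive organs. RNA came from whole liver, in which fewer cells of a type and less RNA per cell cannot be told apart.

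A 48 h fast changed few of these transcripts in WT livers and more of them in Mcl1KO livers. Nr3c2, the mineralocorticoid receptor, fell in both genotypes. In Mcl1KO livers Thrb, Rara, Ppara, Nr2f2 and Nr4a1 fell as well, and Hnf4a and Rxrb rose. Beside these falls, the mean over the hepatocyte markers, which include the called Hnf4a, ranged from 11.22 to 11.28 in fed and from 11.32 to 11.39 in fasted Mcl1KO livers. No receptor passed the test for a fasting effect that differed between the genotypes, so the larger number of calls in Mcl1KO livers is not shown to be a difference between them. Calls were made with limma at an adjusted p under 0.05 over all probe sets.

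For fasting in WT, 1 of 37 receptors was called (2.70%), beside 6.79% of all probe sets. That call was lower, as were 3.68% of all probe sets, and 6 receptors had an unadjusted p under 0.05. Among those that were not dim, 1 of 26 was called (3.85%), beside 12.6% of all such probe sets. For fasting in Mcl1KO, 8 of 37 were called (21.6%), beside 14.4% of all probe sets. Higher calls numbered 2, beside 8.20% of all probe sets, and lower calls 6, beside 6.25%. Among those that were not dim, 8 of 26 were called (30.8%), beside 26.6% of all such probe sets, so the count is near what well-expressed probe sets gave and is no result about the receptors as a class. The receptors' median difference was -0.04 in WT and -0.11 in Mcl1KO, beside 0.01 and 0.00 over all probe sets, and 20 and 24 of the 37 were negative. Without fasted Mcl1KO replicates 3 and 4, fasting in Mcl1KO called 11 receptors, the same 8 and, lower, Nr5a2, Esrrg (-0.81, adjusted p = 0.0166) and Nr2c1 (-0.55, adjusted p = 0.0276). That alternative called 3633 of all 22206 probe sets, where the fit with all arrays called 3208.

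**Figure D1:**
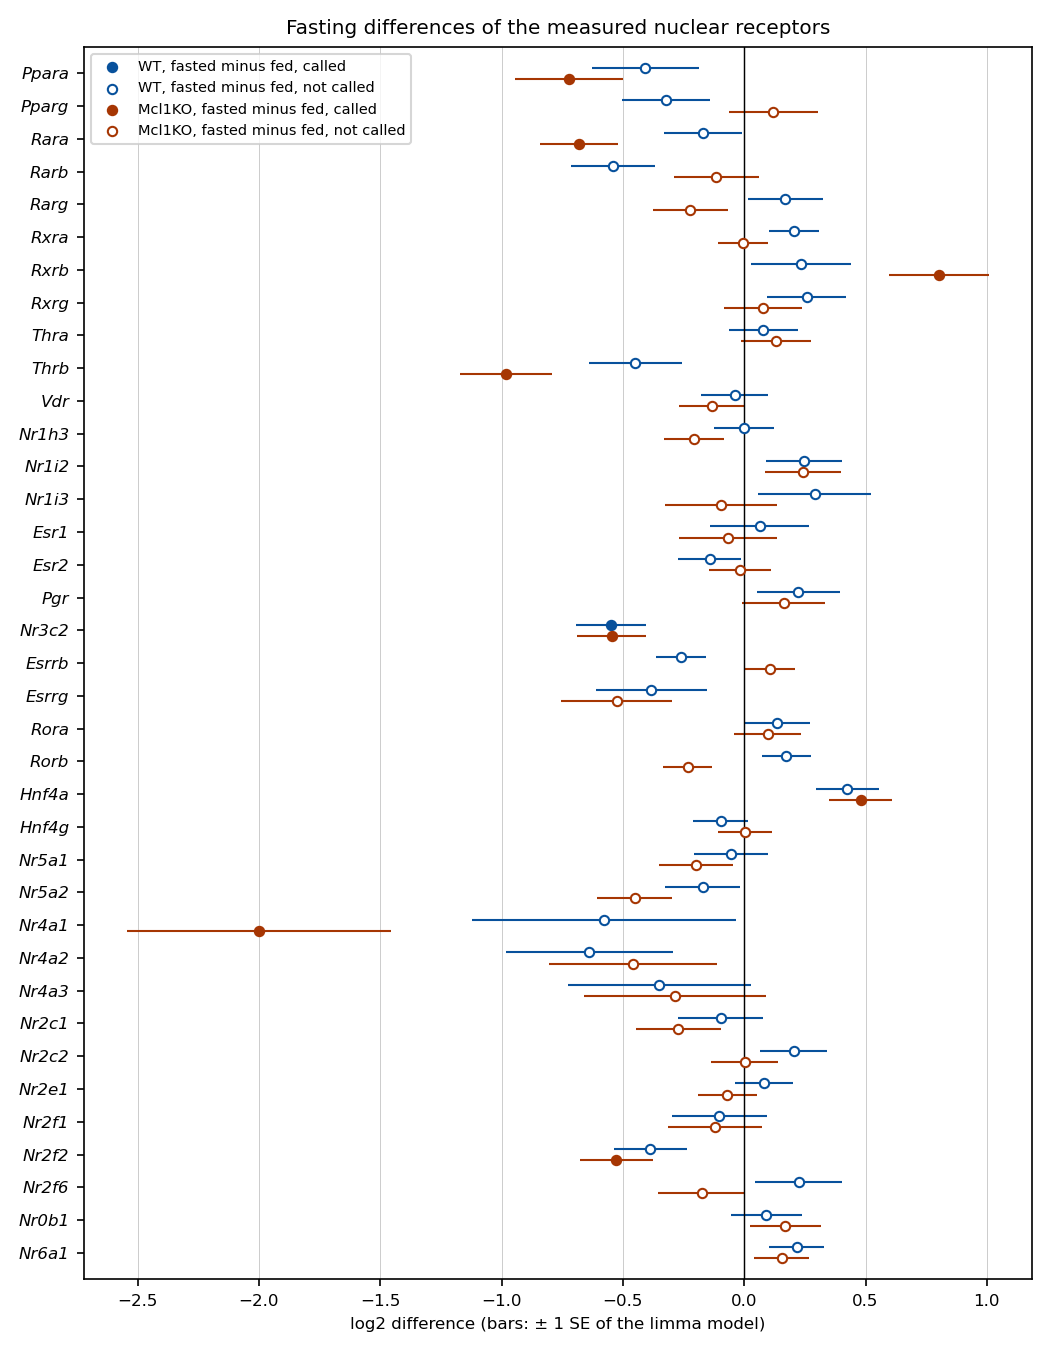
Fasted minus fed log2 difference (x axis) of each of the 37 measured receptors (rows) in WT and in Mcl1KO livers, with bars of 1 SE of the limma model and filled points for calls. One filled point, Nr3c2, belongs to WT and 8 belong to Mcl1KO, and Nr4a1 in Mcl1KO lies farthest from 0 at -2.0.

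Among the fatty acid receptors, Ppara encodes PPAR alpha, the hepatocyte receptor that turns on fat oxidation and ketone synthesis in a fast. Values are listed in the order of replicates 1 to 5. Ppara read 8.25, 7.95, 8.36, 8.32 and 8.21 in fed WT livers and 8.27, 7.78, 7.67, 7.21 and 8.11 in fasted WT livers. Ppara in Mcl1KO livers read 7.83, 7.81, 8.17, 8.47 and 8.24 fed and 6.89, 7.34, 8.18, 7.75 and 6.75 fasted. Fasted Mcl1KO replicates 1 and 5 were the lowest of the 20, replicate 3 lay among the fed livers, and the groups overlapped. The fasting difference in Mcl1KO was -0.72 (SE 0.22, 1.65-fold lower, adjusted p = 0.0283). In WT it was -0.41 (adjusted p = 0.364), and the difference between the effects was -0.31, with a 95% interval from -0.96 to 0.33. The Mcl1KO call was lost in 8 of 19 alternatives, with adjusted p up to 0.103 without fasted Mcl1KO replicate 5. Without fasted Mcl1KO replicates 3 and 4 it was -1.11 (adjusted p = 0.000298), and Ppara was then also lower than in fasted WT livers, by -0.82 (adjusted p = 0.0105). Pparg, the receptor of fat storage, lay between 4.21 and 5.30 on all arrays and was called in no comparison.

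Targets of PPAR alpha rose in the Mcl1KO livers in which Ppara fell. Of 13 measured targets, 7 (53.8%) rose and 0 fell in fasted WT livers (median difference 0.77), beside 6.79% of all probe sets called. In fasted Mcl1KO livers 11 (84.6%) rose and 0 fell (median 1.15), beside 14.4% of all probe sets called. Of probe sets that were not dim, 12.6% and 26.6% were called. Acot1, an acyl-CoA thioesterase, rose by 3.18 in Mcl1KO (adjusted p = 1.08e-06), and Cyp4a14, a fatty acid hydroxylase, by 3.47 (adjusted p = 0.000267). Fed Mcl1KO replicate 1 was low for both, at 3.77 for Acot1 (others 5.21 to 5.81) and 4.84 for Cyp4a14 (others 7.98 to 9.80). Fasted livers read 11.59 to 11.82 in WT and 11.78 to 11.95 in Mcl1KO for Cyp4a14, so its larger rise in Mcl1KO lay in the fed livers. Pdk4, Acot1 and Plin2 were among 4 targets (30.8%, beside 3.32% of all probe sets) that were higher in fasted Mcl1KO than in fasted WT livers. Pdk4 was higher by 2.19 (adjusted p = 0.0035). Of 9 measured PPAR gamma targets, 1 rose in WT (11.1%) and 3 in Mcl1KO livers (33.3%), beside 6.79% and 14.4% of all probe sets called.

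The retinoid receptors did not move as a family. Rara encodes retinoic acid receptor alpha. Rara read 5.74, 5.58, 5.29, 5.58 and 5.65 in fed WT livers and 5.25, 5.48, 5.14, 5.71 and 5.41 in fasted WT livers. Rara in Mcl1KO livers read 5.43, 5.57, 5.36, 5.80 and 5.45 fed and 4.67, 4.86, 5.25, 5.22 and 4.19 fasted. All 5 fasted Mcl1KO livers were below all 5 fed ones, and replicate 5 was the lowest of the 20. Rara fell by 0.68 with fasting in Mcl1KO (SE 0.16, 1.61-fold lower, adjusted p = 0.00414), a call that every alternative kept (-0.95 without fasted Mcl1KO replicates 3 and 4, adjusted p = 0.000109). The WT difference was -0.17 (adjusted p = 0.682). The difference between the fasting effects was -0.51, with a 95% interval from -0.98 to -0.04, which did not pass the adjusted test (adjusted p = 0.386) and did without fasted Mcl1KO replicates 3 and 4 (-0.78, adjusted p = 0.0363). Rara was also lower in fasted Mcl1KO than in fasted WT livers, by -0.56 (SE 0.16, 1.48-fold, adjusted p = 0.0436), and that call was lost in 10 of 19 alternatives. Without fasted Mcl1KO replicates 3 and 4, the livers of that group with the highest Rara signal, it was -0.83 (adjusted p = 0.00129).

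Rarb encodes retinoic acid receptor beta, itself a known target of retinoic acid. Rarb read 4.81, 4.39, 5.10, 4.31 and 5.08 in fed WT livers and 4.13, 4.31, 4.18, 3.96 and 4.41 in fasted WT livers. Rarb in Mcl1KO livers read 4.97, 5.49, 4.97, 4.71 and 4.57 fed and 4.58, 4.60, 5.05, 5.15 and 4.76 fasted. The 5 fasted WT livers were low, with fed WT replicates 2 and 4 among them, and all 5 fasted Mcl1KO livers lay above them, while the fed groups overlapped. Rarb was 0.63 higher in fasted Mcl1KO than in fasted WT livers (SE 0.17, 1.54-fold, adjusted p = 0.0375). The call was lost in 11 of 19 alternatives, among them the one without fasted Mcl1KO replicates 3 and 4 (0.45, adjusted p = 0.182). Fasting in WT gave Rarb a difference of -0.54 that missed the threshold (adjusted p = 0.0655). Markers of other liver cells moved beside it. The mean over 10 stellate cell markers ranged from 4.67 to 4.81 in fasted WT and from 4.81 to 5.09 in fasted Mcl1KO livers, with 3 of 10 dim. Of these markers 3 of 10 were called higher, beside 3.32% of all probe sets, and 0 lower. Their differences were above 0 for 7 and below 0 for 3, down to -0.48. The mean over 9 Kupffer cell markers ranged from 4.85 to 5.11 in fasted WT and from 5.22 to 6.01 in fasted Mcl1KO livers. Of these, 3 of 9 were called higher, beside 3.32% of all probe sets, and 0 lower. All 9 were above 0 and 0 were dim, and 9.32% of probe sets that were not dim were called. The mean over 10 sinusoidal endothelial markers ranged from 5.22 to 5.82 in fasted WT and from 5.53 to 6.06 in fasted Mcl1KO livers. Among them 1 was called higher and 0 lower, 9 were above 0 and 1 below, and 1 was dim. The part of these cells in the Rarb difference was not tested.

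Rarg, retinoic acid receptor gamma, was not called. Rarg read 5.67, 5.90, 5.48, 5.90 and 6.02 in fed WT livers and 5.85, 5.85, 5.69, 6.20 and 6.22 in fasted WT livers. Rarg in Mcl1KO livers read 6.12, 5.96, 5.98, 5.42 and 5.66 fed and 5.28, 5.93, 5.69, 5.33 and 5.82 fasted. Its groups overlapped, and the difference between fasted genotypes was -0.35 (adjusted p = 0.211). Of 7 measured genes of the retinoic acid response, 1 fell in fasted WT livers (14.3%, beside 6.79% of all probe sets called). In fasted Mcl1KO livers 3 fell and 1 rose (57.1%, beside 14.4% of all probe sets called). None of the 7 was dim, and 12.6% (WT) and 26.6% (Mcl1KO) of probe sets that were not dim were called, so the WT share was near that of such probe sets. Cyp26a1, which degrades retinoic acid, fell in both genotypes (-1.43 in WT and -1.24 in Mcl1KO, adjusted p = 0.0104 and 0.0148), and Cyp26b1, a related enzyme, rose in Mcl1KO by 1.37 (adjusted p = 0.00174).

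The RXRs, partners of many receptors named here, differed among themselves. Rxrb was called and Rxra, the main hepatocyte form, and Rxrg were not. Rxrb read 4.59, 4.29, 4.20, 4.41 and 4.74 in fed WT livers and 4.36, 4.59, 4.66, 5.05 and 4.73 in fasted WT livers. Rxrb in Mcl1KO livers read 4.18, 4.52, 4.41, 4.74 and 4.15 fed and 5.48, 4.39, 4.76, 5.57 and 5.81 fasted. Fasted Mcl1KO replicates 1, 4 and 5 were above all other arrays, and replicate 2 lay within the fed range. The fasting difference of Rxrb in Mcl1KO was 0.80 (SE 0.21, 1.74-fold higher, adjusted p = 0.00811), a call that every alternative kept (0.83 without fasted Mcl1KO replicates 3 and 4, adjusted p = 0.0135). In WT it was 0.23 (adjusted p = 0.647). The difference between the effects was 0.57, with a 95% interval from -0.03 to 1.17.

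Rxra varied little. Rxra read 8.15, 8.01, 7.97, 8.0 and 7.95 in fed WT livers and 8.30, 8.33, 8.20, 8.14 and 8.14 in fasted WT livers. Rxra in Mcl1KO livers read 8.20, 8.0, 8.19, 8.27 and 8.11 fed and 8.47, 8.17, 8.05, 7.86 and 8.21 fasted. The fasting differences were 0.21 in WT (adjusted p = 0.304) and -0.01 in Mcl1KO (adjusted p = 0.989). Rxrg lay between 4.0 and 5.10 on all arrays.

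Thyroid hormone acts in liver mainly through the beta receptor, encoded by Thrb. Thrb read 7.18, 7.19, 7.10, 6.96 and 6.94 in fed WT livers and 6.75, 6.63, 6.67, 6.43 and 6.65 in fasted WT livers. Thrb in Mcl1KO livers read 6.51, 6.71, 7.0, 7.27 and 7.11 fed and 5.63, 5.24, 6.67, 6.34 and 5.82 fasted. Fasted WT livers were all below fed WT livers, and fasted Mcl1KO replicates 1, 2 and 5 were the lowest of the 20, while replicate 3 lay within the fed Mcl1KO range. The mean went from 7.08 ± 0.12 fed to 6.63 ± 0.12 fasted in WT livers and from 6.92 ± 0.31 to 5.94 ± 0.57 in Mcl1KO livers (SD, n = 5). Thrb fell by 0.98 with fasting in Mcl1KO (SE 0.19, 1.98-fold lower, adjusted p = 0.000671), the lowest adjusted p among the receptors, and every alternative kept the call (-1.36 without fasted Mcl1KO replicates 3 and 4, adjusted p = 1.19e-06). The WT difference, -0.45, was not called (adjusted p = 0.201) although its arrays did not overlap, and it was called in the fit on WT arrays alone (adjusted p = 0.0128). The model gives all 4 groups 1 spread, and that of Thrb was widest in fasted Mcl1KO livers, as for 15 of 37 receptors (40.5%) and 34.4% of all probe sets.

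Thrb was also lower in fasted Mcl1KO than in fasted WT livers, by -0.69 (SE 0.19, 1.61-fold, adjusted p = 0.0363), a call lost in 9 of 19 alternatives. Without fasted Mcl1KO replicates 3 and 4, the livers of that group with the highest Thrb signal, it was -1.06 (adjusted p = 0.000108). The difference between the fasting effects was -0.53, with a 95% interval from -1.09 to 0.02. Without those 2 livers it was -0.91 (adjusted p = 0.0137). Thra, the alpha receptor, lay between 4.70 and 5.73 on all arrays and was not called. Of 7 measured thyroid hormone target genes, 5 fell and 1 rose in fasted WT livers (85.7%, beside 6.79% of all probe sets called). In fasted Mcl1KO livers 3 fell and 1 rose (57.1%, beside 14.4% of all probe sets called). None of the 7 was dim, and 12.6% (WT) and 26.6% (Mcl1KO) of probe sets that were not dim were called. Thrsp, a lipogenic gene, fell by 2.75 in WT and by 3.39 in Mcl1KO (adjusted p = 1.02e-06 and 2.24e-08), and Dio1, the deiodinase that activates the hormone, fell by 1.48 and by 2.0 (adjusted p = 0.0019 and 2.87e-05).

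**Figure D2:**
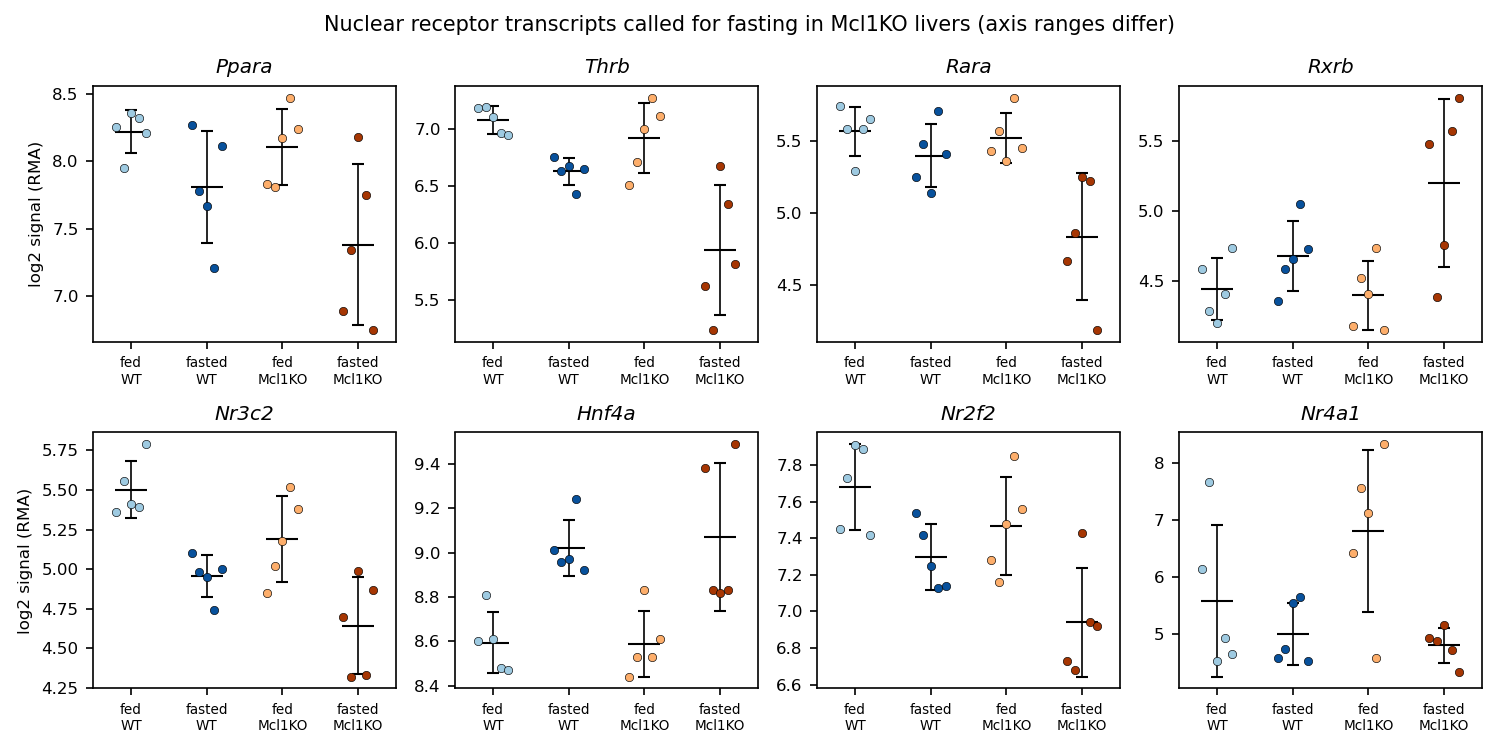
Log2 signal (y axes, with different ranges) of called receptors on each array, by feeding state and genotype. Points are single livers, and bars are the mean ± SD (n = 5); fasted Mcl1KO livers spread widely for Thrb, from 5.24 to 6.67.

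Vdr, the vitamin D receptor, was not called. Vdr read 6.13, 6.11, 6.0, 6.0 and 6.38 in fed WT livers and 6.0, 5.92, 6.51, 6.04 and 5.95 in fasted WT livers. Vdr in Mcl1KO livers read 6.34, 5.73, 6.08, 5.81 and 6.21 fed and 5.96, 5.95, 5.79, 5.64 and 6.18 fasted. All 4 groups overlapped. Nr1h3 encodes LXR alpha, the oxysterol receptor that drives cholesterol efflux and lipogenic genes. Nr1h3 read 7.42, 7.28, 7.30, 7.50 and 7.13 in fed WT livers and 7.39, 7.28, 7.11, 7.42 and 7.43 in fasted WT livers. Nr1h3 in Mcl1KO livers read 7.35, 7.40, 7.39, 7.42 and 7.11 fed and 6.80, 6.83, 7.22, 7.42 and 7.36 fasted. Fasted Mcl1KO replicates 1 and 2 were the lowest, and the Mcl1KO fasting difference was -0.21 (adjusted p = 0.334). Of 8 measured LXR targets, 2 fell in fasted WT livers (25.0%, beside 6.79% of all probe sets called). In fasted Mcl1KO livers 3 fell and 2 rose (62.5%, beside 14.4% of all probe sets called). None of the 8 was dim, and 12.6% (WT) and 26.6% (Mcl1KO) of probe sets that were not dim were called.

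Nr1i3 and Nr1i2 encode CAR and PXR, which sense drugs and switch on detoxifying enzymes. Nr1i3 read 8.21, 8.70, 9.04, 8.78 and 8.81 in fed WT livers and 9.46, 8.98, 8.97, 8.55 and 9.03 in fasted WT livers. Nr1i3 in Mcl1KO livers read 8.11, 7.83, 8.90, 9.06 and 9.15 fed and 8.39, 8.36, 9.16, 8.22 and 8.43 fasted. Fasted Mcl1KO replicate 3 stood above the other 4 of its group, and both fed groups were wide. The CAR difference between fasted genotypes was -0.48 (adjusted p = 0.265). Nr1i2 read 6.34, 6.33, 5.81, 6.05 and 6.03 in fed WT livers and 6.34, 6.31, 6.28, 6.24 and 6.63 in fasted WT livers. Nr1i2 in Mcl1KO livers read 5.66, 6.31, 5.84, 6.41 and 6.34 fed and 6.09, 6.06, 6.72, 6.60 and 6.32 fasted. PXR groups overlapped, and its fasting differences were 0.25 in WT and 0.24 in Mcl1KO (adjusted p = 0.459 and 0.389). Of 10 measured CAR and PXR targets, 1 rose and 2 fell in fasted WT livers (30.0%, beside 6.79% of all probe sets called). In fasted Mcl1KO livers 2 rose and 4 fell (60.0%, beside 14.4% of all probe sets called). Only 1 of the 10 was dim, and 12.6% (WT) and 26.6% (Mcl1KO) of probe sets that were not dim were called. Between fasted genotypes, 7 of the 10 were negative (median difference -0.21), with 1 called higher and 1 lower in Mcl1KO, beside 3.32% and 1.67% of all probe sets. Cyp2b10, the usual readout of CAR activity, was 2.38 higher (adjusted p = 0.00384), and Ces2a, a carboxylesterase, was lower, at -0.81 (adjusted p = 0.0213).

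Among the steroid receptors Nr3c2 was the one called, and it fell in both genotypes. Nr3c2 read 5.36, 5.56, 5.41, 5.39 and 5.79 in fed WT livers and 5.10, 4.98, 4.95, 4.74 and 5.0 in fasted WT livers. Nr3c2 in Mcl1KO livers read 4.85, 5.02, 5.18, 5.52 and 5.38 fed and 4.70, 4.32, 4.99, 4.33 and 4.87 fasted. Every fasted WT liver was below every fed WT liver, and among Mcl1KO livers fasted replicates 3 and 5 overlapped with fed replicate 1. Nr3c2 fell by 0.55 in WT (SE 0.14, 1.46-fold lower, adjusted p = 0.0182) and by 0.55 in Mcl1KO (SE 0.14, 1.46-fold lower, adjusted p = 0.00932). The difference between the effects was 0.00, with a 95% interval from -0.41 to 0.42, so effects that differ by up to that much are compatible with these arrays. The WT call was lost without fed WT replicate 5 (adjusted p = 0.0629) or without fasted WT replicate 4 (adjusted p = 0.0551), and the Mcl1KO call was kept in every alternative (-0.56 without fasted Mcl1KO replicates 3 and 4, adjusted p = 0.0128). Esr1, the oestrogen receptor of hepatocytes, lay between 4.47 and 5.65 and was not called. The dim Esr2 and Pgr, the beta oestrogen and the progesterone receptor, were not called either, nor, with all 20 arrays, were the oestrogen-related receptors Esrrb, which was dim, and Esrrg, which lay between 2.97 and 4.57.

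Rora encodes ROR alpha, an orphan receptor that activates clock and lipid genes. Rora read 6.86, 7.05, 6.97, 6.77 and 6.87 in fed WT livers and 6.79, 6.89, 6.98, 7.31 and 7.22 in fasted WT livers. Rora in Mcl1KO livers read 6.60, 6.98, 7.11, 6.99 and 7.11 fed and 7.48, 6.85, 6.86, 7.27 and 6.81 fasted. Groups overlapped, and no comparison was called for any setting. Rorb, known from brain and retina, was dim, and 1 of its 2 probe sets gave a call. Rorb read 2.42, 2.22, 2.14, 2.34 and 2.28 in fed WT livers and 2.31, 2.54, 2.54, 2.19 and 2.66 in fasted WT livers. Rorb in Mcl1KO livers read 2.26, 2.24, 2.35, 2.36 and 2.31 fed and 1.99, 2.18, 1.92, 2.01 and 2.25 fasted. The fasted Mcl1KO livers were low, and 1 of them overlapped with fasted WT livers. Its difference between fasted genotypes was -0.38 (SE 0.10, 1.30-fold, adjusted p = 0.0313), whereas the other probe set gave an adjusted p of 0.813. The call was lost in 11 of 18 alternatives, among them median centring (adjusted p = 0.0533) and the fit without fasted Mcl1KO replicates 3 and 4 (-0.31, adjusted p = 0.120).

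Hnf4a encodes HNF4 alpha, which maintains hepatocyte identity. Hnf4a read 8.60, 8.81, 8.61, 8.48 and 8.47 in fed WT livers and 9.01, 8.96, 8.97, 9.24 and 8.92 in fasted WT livers. Hnf4a in Mcl1KO livers read 8.44, 8.53, 8.83, 8.53 and 8.61 fed and 9.38, 8.83, 8.82, 8.83 and 9.49 fasted. Every fasted WT liver was above every fed WT liver, and fasted Mcl1KO replicates 1 and 5 were the highest of the 20 while replicates 2, 3 and 4 lay level with fed replicate 3. Hnf4a rose by 0.48 in Mcl1KO (SE 0.13, 1.40-fold, adjusted p = 0.0122). In WT the difference of 0.42 fell just short of a call (adjusted p = 0.0501). The difference between the effects was 0.06, with a 95% interval from -0.32 to 0.44. The Mcl1KO call was lost in 1 alternative, the fit on Mcl1KO arrays alone (adjusted p = 0.0520), and was kept without fasted replicates 3 and 4 (0.64, adjusted p = 0.0019). The WT difference was called in 5 alternatives, with adjusted p from 0.0189 to 0.0408. Of 10 measured HNF4 alpha targets, 1 rose and 2 fell in fasted WT livers, beside 6.79% of all probe sets called. Fasted Mcl1KO livers had 3 that rose and 4 that fell, beside 14.4% of all probe sets called. With none of the 10 dim, the like shares were 12.6% (WT) and 26.6% (Mcl1KO) of probe sets that were not dim. Cyp8b1, a bile acid hydroxylase, rose by 2.59 in Mcl1KO (adjusted p = 1.39e-06), and Pklr, a glycolytic enzyme, fell by 1.23 (adjusted p = 0.00084).

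Nr5a2 encodes LRH-1, a regulator of bile acid and cholesterol genes. Nr5a2 read 7.31, 8.04, 8.18, 7.81 and 7.92 in fed WT livers and 7.70, 7.89, 7.46, 7.77 and 7.57 in fasted WT livers. Nr5a2 in Mcl1KO livers read 7.73, 7.84, 7.83, 8.03 and 7.95 fed and 7.47, 6.93, 7.88, 7.48 and 7.35 fasted. Fasted Mcl1KO replicate 2 was the lowest and replicate 3 lay with the fed livers. The Mcl1KO fasting difference was -0.45 (adjusted p = 0.0517) and was called in 5 alternatives, at -0.62 (adjusted p = 0.00952) without fasted Mcl1KO replicates 3 and 4. Hnf4g and Nr5a1, relatives of these receptors known from gut and from steroidogenic tissue, were dim and not called.

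**Figure D3:**
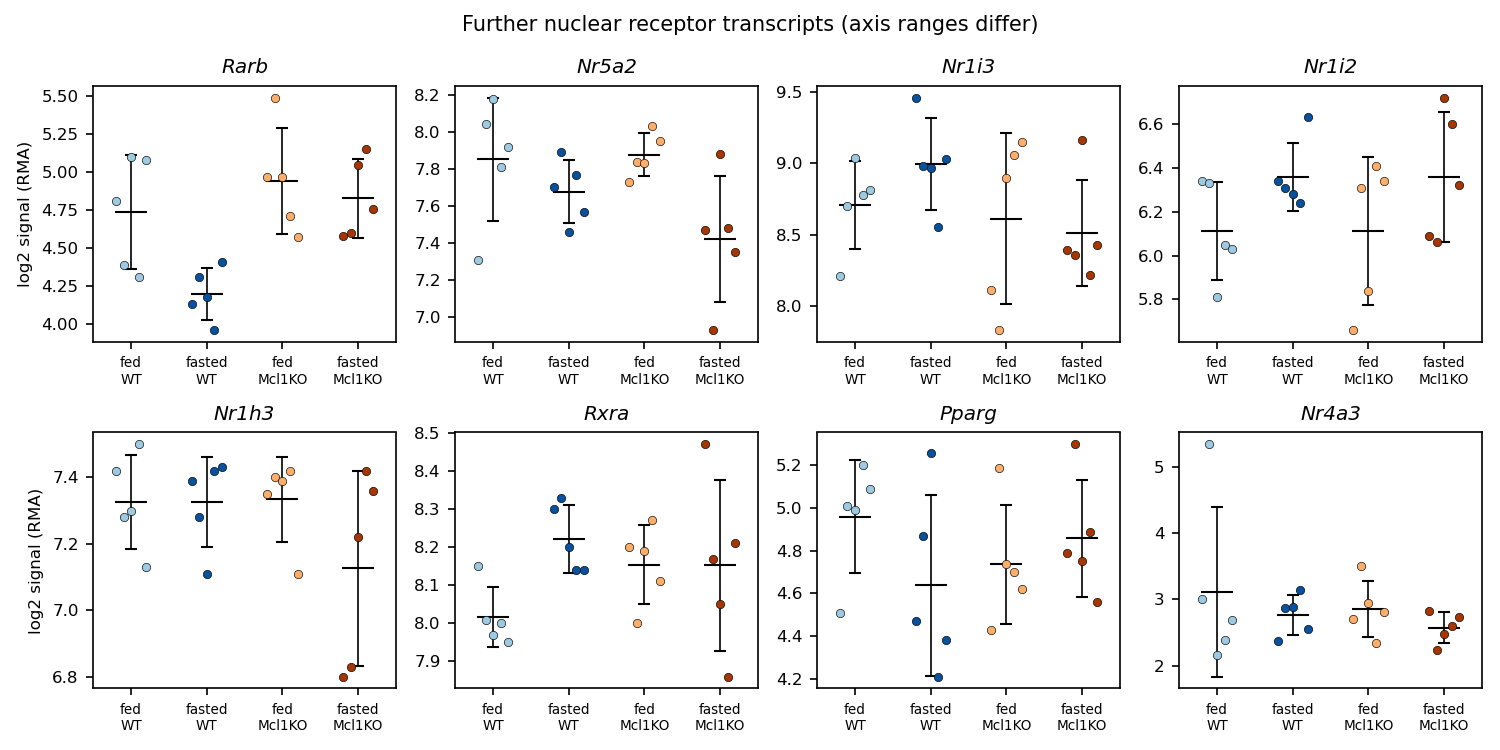
Log2 signal (y axes, with different ranges) of 8 further receptors on each array, by feeding state and genotype. Points are single livers, and bars are the mean ± SD (n = 5); all 5 fasted Mcl1KO livers lie above all 5 fasted WT livers for Rarb, and 1 fed WT liver stands at 5.34 for Nr4a3.

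Nr4a1 encodes NUR77, an immediate-early receptor that is induced within minutes to hours of a hormone or stress signal and acts without a known natural ligand. Nr4a1 read 6.15, 7.67, 4.53, 4.94 and 4.65 in fed WT livers and 4.58, 4.74, 5.55, 5.65 and 4.54 in fasted WT livers. Nr4a1 in Mcl1KO livers read 6.43, 7.56, 7.12, 4.59 and 8.33 fed and 4.93, 4.88, 5.16, 4.73 and 4.34 fasted. Fed livers were spread widely, with 4 of 5 fed Mcl1KO livers at 6.43 or more and fed WT replicates 1 and 2 also high, whereas all 10 fasted livers lay at 5.65 or below. Fed Mcl1KO replicate 4 overlapped with the fasted livers. Nr4a1 fell by 2.0 with fasting in Mcl1KO (SE 0.54, 4.0-fold lower, adjusted p = 0.0128), the largest difference of any receptor, and the call was lost without fed Mcl1KO replicate 5 (adjusted p = 0.0510) and kept without fasted Mcl1KO replicates 3 and 4 (-2.09, adjusted p = 0.0284). In WT the difference was -0.58 (adjusted p = 0.675), and the difference between the effects was -1.42, with a 95% interval from -3.01 to 0.17. In fed livers Nr4a1 was 1.21 higher in Mcl1KO (adjusted p = 0.727).

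Nr4a2 and Nr4a3, its paralogs, were dim by their means over all arrays. Fed WT replicate 2 read 5.20 for Nr4a2 and 5.34 for Nr4a3, where the other 4 fed WT livers read 2.32 to 2.69 and 2.17 to 3.0, and the same liver read 7.67 for Nr4a1. In fed Mcl1KO replicate 5, which had the highest Nr4a1 signal (8.33), they read 2.56 and 2.81. Of 4 measured NR4A targets, 1 rose (25.0%) and 0 fell with fasting in each genotype. Beside it, 6.79% of all probe sets were called in WT and 14.4% in Mcl1KO, and 12.6% and 26.6% of those not dim.

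Nr2f2 encodes COUP-TFII, a receptor of hepatocytes and also of venous endothelium and mesenchymal cells. Nr2f2 read 7.45, 7.73, 7.91, 7.89 and 7.42 in fed WT livers and 7.54, 7.42, 7.25, 7.13 and 7.14 in fasted WT livers. Nr2f2 in Mcl1KO livers read 7.28, 7.16, 7.48, 7.85 and 7.56 fed and 6.73, 6.68, 7.43, 6.94 and 6.92 fasted. Fasted Mcl1KO livers were low except for replicate 3, and the groups overlapped. The fasting difference was -0.53 in Mcl1KO (SE 0.15, 1.44-fold lower, adjusted p = 0.0173) and -0.39 in WT (adjusted p = 0.149). The Mcl1KO call was lost in 3 alternatives that each left out 1 array, fed Mcl1KO replicate 4 (adjusted p = 0.0615) or fasted Mcl1KO replicate 1 (0.0533) or 2 (0.0581). Without fasted Mcl1KO replicates 3 and 4 it was -0.69 (adjusted p = 0.00272), and Nr2f2 was then also lower than in fasted WT livers, by -0.52 (adjusted p = 0.0388). Beside this fall, the mean over 10 sinusoidal endothelial markers ranged from 5.26 to 5.65 in fed Mcl1KO and from 5.53 to 6.06 in fasted Mcl1KO livers. Of these markers 3 of 10 were called higher, beside 8.20% of all probe sets, 0 were called lower and 1 was dim. Their differences were above 0 for 7 and below 0 for 3. The mean over 10 stellate cell and fibroblast markers ranged from 4.93 to 5.42 in fed and from 4.81 to 5.09 in fasted Mcl1KO livers. Of these, 2 were called higher and 2 lower, beside 8.20% and 6.25% of all probe sets, and 3 were dim. Here 5 differences were above 0 and 5 below, from -1.70 to 0.91. The part of endothelial or mesenchymal cells in the Nr2f2 difference was not tested.

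The remaining orphan receptors were not called in any comparison with all 20 arrays. Nr2c1, Nr2c2 and Nr2f6, which encode the receptors TR2, TR4 and EAR2, lay between 4.77 and 5.87, 4.86 and 5.62, and 4.43 and 5.80 on all arrays. Nr6a1, which encodes the germ cell nuclear factor, lay between 5.08 and 5.86. Nr2f1, Nr2e1 and Nr0b1, which encode COUP-TFI, TLX and DAX1, were dim.

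Loss of Mcl1 in fed livers moved no receptor past the threshold: 0 of 37 were called by limma, beside 0.0360% of all probe sets, and 3 had an unadjusted p under 0.05. In fasted livers 4 of 37 were called (10.8%), beside 4.99% of all probe sets. One was higher, Rarb, beside 3.32% of all probe sets, and 3 were lower, Thrb, Rara and Rorb, beside 1.67%. Among receptors that were not dim, 3 of 26 were called (11.5%), beside 9.32% of all such probe sets. This comparison shares its fasted Mcl1KO arrays with the fasting comparison in Mcl1KO, so the falls of Thrb and Rara in both are not separate evidence. Without fasted Mcl1KO replicates 3 and 4, Thrb, Rara, Ppara and Nr2f2 were called lower and 0 receptors higher. Calls over all 22206 probe sets then numbered 1085 higher and 904 lower, more than with all arrays. The receptors' median difference was -0.05 in fed and -0.19 in fasted livers, beside 0.00 and -0.02 over all probe sets. Over all probe sets the fasted comparison with all arrays had 738 higher and 371 lower calls. These became 561 and 459 once the arrays were quantile-normalised again, and 880 and 272 after median centring, so their balance depends on the scaling.

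The difference between the fasting effects was called for 0 of 37 receptors by limma, beside 0.135% of all probe sets, and 3 had an unadjusted p under 0.05. Without fasted Mcl1KO replicates 3 and 4, 2 receptors, Thrb and Rara, were called lower. Over all probe sets this comparison had 30 calls, 331 without fasted Mcl1KO replicate 3 and 765 without replicates 3 and 4. Intervals of the called receptors spanned 0 apart from those of Rara and Rorb, and that of Nr4a1 was the widest.

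**Figure D4:**
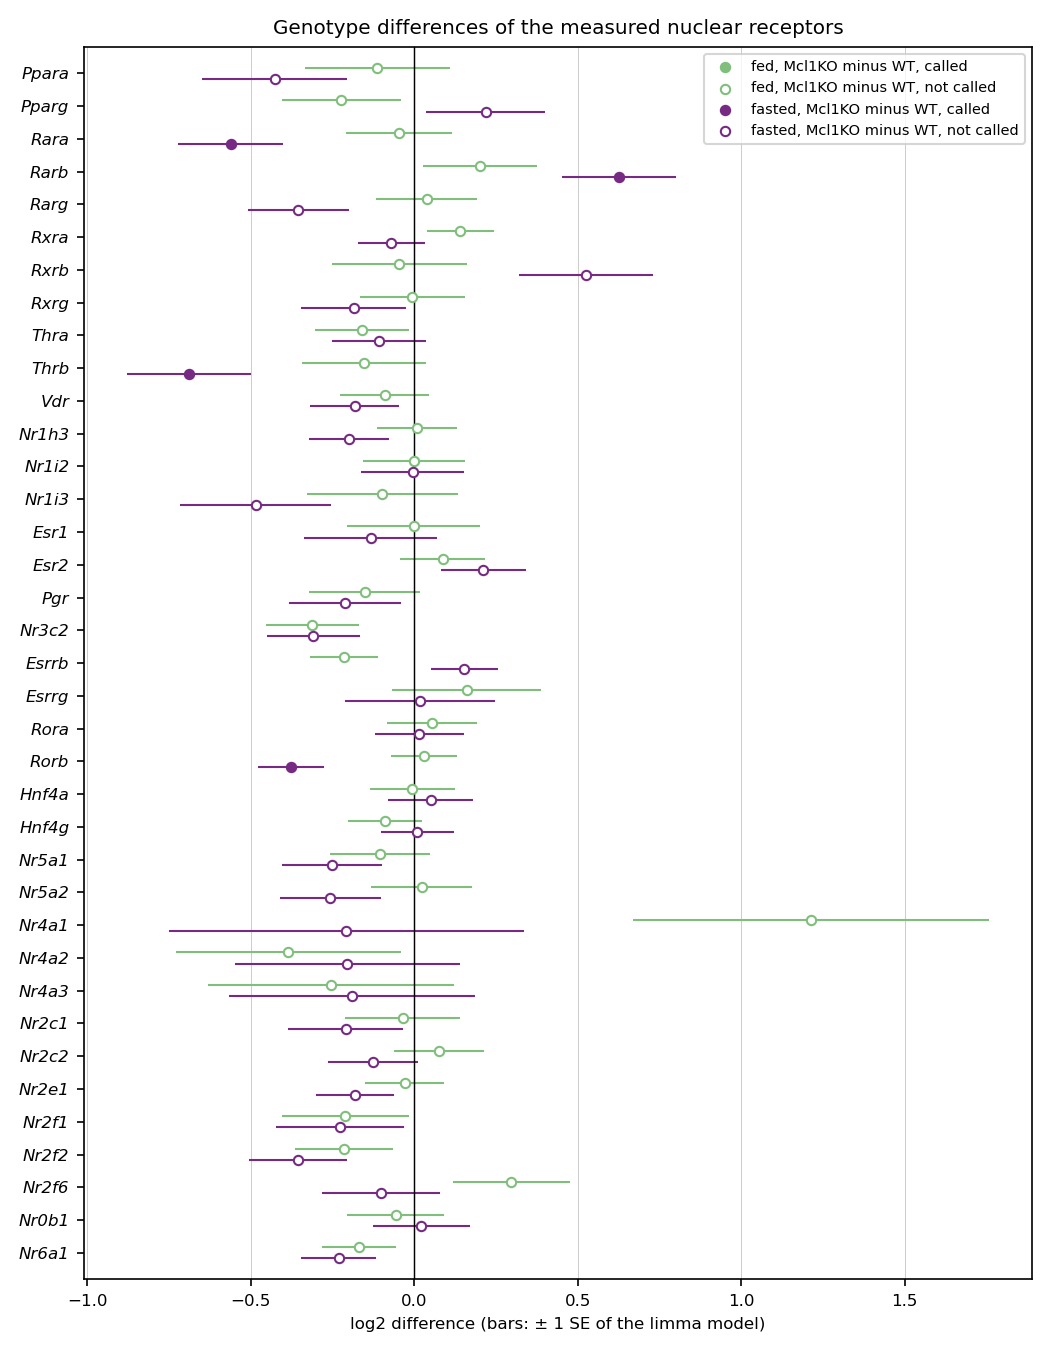
Mcl1KO minus WT log2 difference (x axis) of each of the 37 measured receptors (rows) in fed and in fasted livers, with bars of 1 SE of the limma model and filled points for calls. The 4 filled points are Rarb, above 0 at 0.63, and Thrb, Rara and Rorb, below 0 in fasted livers, and none belongs to fed livers.

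Of 26 measured coregulators of the receptors, 3 rose and 1 fell with fasting in WT livers (15.4%). Beside them, 6.79% of all probe sets and 12.6% of those not dim were called. The coregulators' differences were evenly split, 13 above and 13 below 0, with a median of 0.00. In Mcl1KO livers 9 rose and 1 fell (38.5%, beside 14.4% of all probe sets and 26.6% of those not dim), with 22 above 0 and a median of 0.24. Ppargc1a, which encodes the coactivator PGC-1 alpha, and Lpin1, a PPAR alpha coactivator and lipid phosphatase, were higher in every fasted liver than in every fed liver of the same genotype, by 1.80 and 1.71 in WT and by 1.64 and 1.68 in Mcl1KO (adjusted p = 4.00e-05, 3.19e-05, 5.01e-05 and 1.69e-05). Ncoa4, named a coactivator and known for ferritin turnover, rose by 0.86 and by 1.07 (adjusted p = 1.52e-05 and 2.96e-07). Tbl1x, a subunit of corepressor complexes, fell by 0.39 and by 0.50 (adjusted p = 0.0385 and 0.00326), while its paralog Tbl1xr1 rose by 0.77 in Mcl1KO (adjusted p = 0.000541). Tbl1xr1 and the corepressor gene Nrip1 were also higher in fasted Mcl1KO than in fasted WT livers, by 0.66 and 0.50 (adjusted p = 0.0109 and 0.0142). Sirt1, a deacetylase of PGC-1 alpha chosen after its values were seen, rose by 0.47 in Mcl1KO (adjusted p = 0.0206) and stood at -0.32 in WT (adjusted p = 0.208). The difference between those effects was 0.79, with a 95% interval from 0.39 to 1.19, and did not pass the adjusted test (adjusted p = 0.0849).

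**Figure D5:**
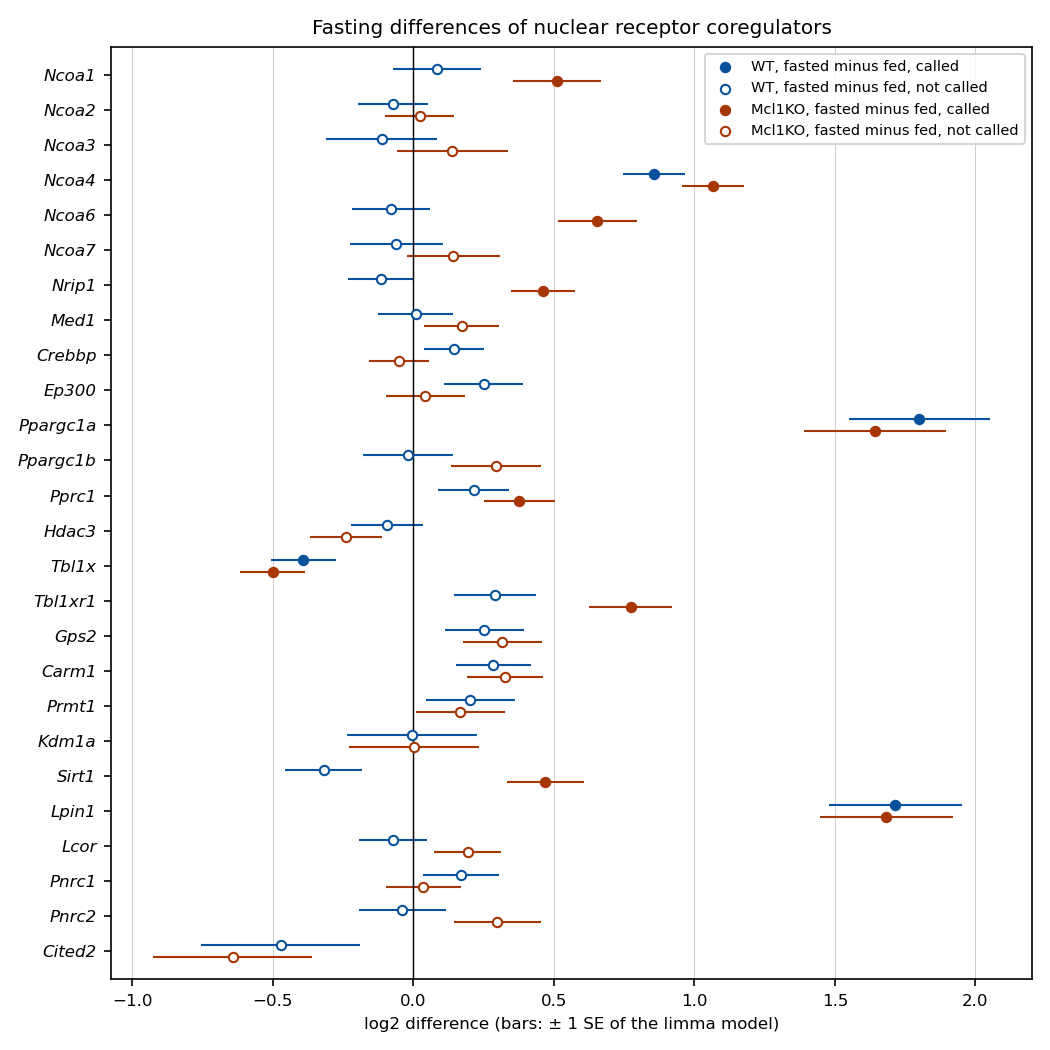
Fasted minus fed log2 difference (x axis) of 26 nuclear receptor coregulators (rows) in WT and in Mcl1KO livers, with bars of 1 SE of the limma model and filled points for calls. Ppargc1a and Lpin1 lie farthest to the right in both genotypes, between 1.64 and 1.80, and Tbl1x is the one filled point left of 0.

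Genes that carry, make or clear the receptors' ligands fell more often than they rose. Of 18 measured, 2 rose and 6 fell in fasted WT livers (44.4%, beside 6.79% of all probe sets called, median difference -0.22). In fasted Mcl1KO livers 2 rose and 10 fell (66.7%, beside 14.4% of all probe sets called, median -0.45). Only 1 of the 18 was dim, and 12.6% (WT) and 26.6% (Mcl1KO) of probe sets that were not dim were called. Serpina7, the thyroxine-binding globulin, fell by 2.91 in WT and by 1.55 in Mcl1KO (adjusted p = 3.27e-05 and 0.00858), and Fabp1, which carries fatty acids to PPAR alpha, fell by 1.93 and by 1.49 (adjusted p = 4.57e-05 and 0.000376). Sult1e1, an oestrogen sulphotransferase, rose by 2.44 and by 4.29 (adjusted p = 0.00156 and 6.66e-07), and was 2.27 higher in fasted Mcl1KO than in fasted WT livers (adjusted p = 0.00675). Its fasted WT livers were spread widely, from 3.21 to 7.39, and replicate 4 among them was above all fasted Mcl1KO livers (6.42 to 7.31). Dhrs3, which reduces retinal, and Hsd11b1, which regenerates active glucocorticoid, were lower in fasted Mcl1KO than in fasted WT livers, both by -0.64 (adjusted p = 0.0183 and 0.00606).

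Of 6 measured receptors outside the list, Nr1d2, the clock repressor REV-ERB beta, fell by 0.56 in WT and by 0.66 in Mcl1KO (adjusted p = 0.000991 and 7.87e-05), and Nr0b2, the bile acid responsive repressor SHP, fell by 1.56 in Mcl1KO (adjusted p = 0.000281).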

How the data were processed

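The deposited table holds log2 signals, 1 column per array, which the authors made with RMA and Partek 7.0, per the submitters' processing notes. No source names the RMA settings. The file does not state its log base, and log2 was assumed from RMA and the range of 1.34 to 12.56. RMA brings arrays near a common distribution, so a shift of most transcripts may not show, and it compresses differences of dim probe sets. Medians of the arrays in the deposited values still ranged from 3.35 to 3.47.

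Symbols came from the platform annotation. With limma 3.58.1 in R 4.3.3, the 20 arrays were fitted with a mean for each of the 4 groups, with eBayes (prior df 6.95) and Benjamini-Hochberg adjustment over 22206 probe sets. The contrasts were fasted minus fed in each genotype, Mcl1KO minus WT in each feeding state, and the difference between the fasting effects. The labels name biological replicates but no separate cohorts. On simulated data for fasting in WT (22206 probe sets, 200 changed), 91% of log2 changes of 1 and 35% of those of 0.5 were recovered, with 3 false calls. The number of arrays limits the precision.

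The members and gene lists were chosen with earlier results of these data known. All 41 members are named, with values for every array for those called in any contrast or among the 12 brightest. Of other lists, up to 3 called genes per direction and contrast could be named. Promoter motifs were chosen after the values were seen, and other motifs, among them the E-box and glucocorticoid, FOXO, ROR and NR4A elements, were searched as well. Replicate numbers did not pair the samples: over 30 pairs of same-numbered arrays of different groups, the deviations from the group means correlated from -0.19 to 0.17, and 1 pair was over 0.1. Alternatives were 2 rescalings, other moderation, array weights, dim probe sets left out, the compared groups alone, another probe set, a replicate block and leaving out arrays. Plots used matplotlib 3.10.9 (Python 3.11.15).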

Additional observations from a re-analysis of the deposited data

Results flagged for a closer look

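In 10 of 148 groups of 5 arrays, 1 liver stood far from the other 4 by Dixon's criterion. Chance gives about 1 in 20, or 7.40 here. Fed WT replicate 2 was high for both Nr4a2 (5.20, others 2.32 to 2.69) and Nr4a3 (5.34, others 2.17 to 3.0), and fed WT replicate 4 was high for Esrrg (4.57, others 3.41 to 3.54). Among fasted WT livers, replicate 3 was high for Vdr (6.51, others 5.92 to 6.04), replicate 4 for Hnf4a (9.24, others 8.92 to 9.01) and replicate 5 for Nr1i2 (6.63, others 6.24 to 6.34). Among fed Mcl1KO livers, replicate 1 was low for Rora (6.60, others 6.98 to 7.11) and Nr2f6 (5.14, others 5.61 to 5.80), and replicate 5 was low for Nr1h3 (7.11, others 7.35 to 7.42). Fasted Mcl1KO replicate 3, which also lay closest to fasted WT livers over all probe sets, was high for Nr1i3 (9.16, others 8.22 to 8.43).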

How the results depend on the processing

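Fasting in WT called 1 receptor, and 2 with trended and robust moderation or with array weights, 3 without dim probe sets or on the compared groups alone, and 0 to 3 when 1 array was left out. Fasting in Mcl1KO called 8, 8 with the replicate block, 6 to 10 when 1 array was left out, and 11 without fasted Mcl1KO replicates 3 and 4 together, an alternative added after seeing the data. The fasted comparison of genotypes called 4, and 1 after median centring or on the compared groups alone, 2 with array weights, 2 with the replicate block, 0 to 3 when 1 array was left out, and 4 without those 2 arrays, where Ppara and Nr2f2 were gained and Rarb and Rorb lost. Without those 2 arrays, calls over all probe sets went from 3208 to 3633 for fasting in Mcl1KO. They went from 1109 to 1989 for the fasted comparison of genotypes. The replicate numbers share nothing known. The fed comparison called 0 throughout, and the difference between the fasting effects called 0 except for 2 without those 2 arrays. Of 3719 values of single receptors under the alternatives, 56 lost a call, 24 gained one and the others kept their side of the threshold. Among the latter, 6, of Rora and Rorb with another probe set, moved by more than the spread between replicates. No called value changed sign. Uncalled differences near 0 changed sign in 186 cases, over 57 of 185 pairs of receptor and comparison. For 11 dim receptors the signal over background limits what could be seen. The causes of these changes were not tested.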
